A study of Mus musculus with 16 samples.

Results

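The imprinted Dlk1-Dio3 locus on distal mouse chromosome 12 was represented by 30 of the 1269 small RNAs in the deposited table, or 30 of its 677 miRNA entries. Members were all miRNAs placed on chromosome 12 between positions 109400000 and 110300000 of mm10, so the choice used position only and no measured value. They came from small RNA sequencing of primary mouse tracheal epithelial cells at an air-liquid interface, where exposing the surface to air lets basal cells form multiciliated cells. Cultures of wild-type mice (WT) were set beside cultures of global p73 knockout mice (KO), in which every cell of the culture lacks p73 and not the multiciliated cells alone. Both genotypes had the same air-liquid interface treatment and were taken at days 0, 4, 7 and 14, which gives 8 groups of 2 libraries and 16 libraries in all. The labels call these independent biological replicates and number them 2 and 3, and they give neither strain nor age nor the number of animals behind a culture.

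In the mouse, Dlk1, Rtl1 and Dio3 are expressed from the paternal chromosome, while the non-coding transcripts Meg3, Rian and Mirg and the miRNAs cut from them come from the maternal one. The cluster is among the large miRNA clusters of mammals and is best known from embryo, placenta, brain, muscle and stem cells. A miRNA recognises its targets mainly through its seed, bases 2 to 8 counted from the 5′ end, so miRNAs of different seeds are expected to have different target sets. The 5 members with the most reads at day 0 are printed here because all 5 are among the 7 members that could be followed to day 4. The sequences are the mature miRNAs of RefSeq on GRCm38.p6, 5′ to 3′, with the seed in capitals.
miR-127-3p: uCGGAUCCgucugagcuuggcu
miR-541-5p: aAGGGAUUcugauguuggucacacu
miR-1247-5p: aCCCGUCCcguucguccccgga
miR-411-5p: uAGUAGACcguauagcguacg
miR-434-3p: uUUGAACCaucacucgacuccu
No seed was held by more than 1 of the 29 members with a RefSeq sequence, so these miRNAs share a position and not a seed.

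In mm10, miR-127-3p lies at chr12:109592888-109592909 on the plus strand, opposite an exon of Rtl1, a gene derived from a retrotransposon and needed in the placenta. miR-434-3p lies next to it at chr12:109594565-109594586, also opposite the Rtl1 exon, and in the mouse such antisense miRNAs are known to direct cleavage of Rtl1 mRNA. miR-411-5p at chr12:109710190-109710210 lies between annotated genes near the start of the miR-379/miR-410 block, and miR-541-5p at chr12:109742422-109742446 lies in an intron of Mirg. miR-1247-5p at chr12:110278094-110278115 is on the minus strand, in an exon of Dio3os beside Dio3, which encodes a deiodinase that inactivates thyroid hormone. It and its partner arm miR-1247-3p were the 2 minus-strand members, against 28 on the plus strand. The members came from 27 hairpins. RefSeq lists 113 mature miRNAs from 58 hairpins in the same window, of which 29 were matched by name to a member, 28 of them at the same start and end.

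The deposited values are normalised read counts on a scale that differs from day to day, and every one of them was a whole multiple of the value of 1 read in its library. Reads recovered in this way summed per library to 197497 to 684413 (day 0), 303391 to 674716 (day 4), 677569 to 1035759 (day 7) and 432452 to 1777273 (day 14). The recovered reads are less certain at days 7 and 14, where low entries are blank. All 30 members had values on day 0, while 7 had them on day 4, 2 on day 7 and none on day 14. Blanks were common outside the cluster too, since the entries with values numbered 1234, 805, 326 and 309 on these days. A blank is not 0, and the lowest mean listed was 16.4 at day 7 and 14.97 at day 14, so levels under about these could not be followed there. All 7 epithelial marker miRNAs (the miR-200 family, miR-203-3p and miR-205-5p) were listed at every day, with summed values of 14746 to 35464 per library. Of the 3 muscle markers only miR-206-3p was among the entries, at 0 to 7.52 at days 0 and 4, and of the 2 neuronal markers, miR-9-5p and miR-124-3p, neither was.

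At day 0 the cluster was led by a few members from separate stretches of the locus. The 4 libraries held 909 reads of it, and 494 of these (54.3%) came from the 6 members opposite Rtl1. The 17 members of the miR-379/miR-410 block up to Mirg gave 222 reads (24.4%), and the pair near Dio3 gave 178 reads (19.6%). The 3 members between Meg3 and Rtl1 gave 14 reads and the single member in Rian, miR-370-3p, gave 1. The longest stretch in RefSeq, the block with 74 mature miRNAs, thus gave fewer reads than the 13 listed there opposite Rtl1. The only small RNA of another class in the window was the small nucleolar RNA AF357425, with 1 read.

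miR-127-3p was the most abundant member, with a mean of 107 over the 4 day 0 libraries, rank 85 of the 660 miRNAs with values at that day. miR-1247-5p had a mean of 39.9 (rank 113) and miR-541-5p a mean of 33.4 (rank 126). These 3 were the members with a day 0 mean of at least 10. Next came miR-411-5p at 8.86 and miR-434-3p at 6.44, still above the median miRNA at 1.29. Of the other 25 members, 21 had no more than 3 reads over the 4 libraries, 31 reads in all, and no level or difference can be read from them one by one.

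Where both arms of a hairpin were listed, 1 arm held most of the reads in 2 hairpins of 3. miR-1247-5p had 164 reads against 14 for miR-1247-3p, a 5p share of 92.1% (exact 95% binomial interval 87.2 to 95.6). miR-434 went the other way, with 1 read of miR-434-5p and 29 of miR-434-3p, a 5p share of 3.33% (0.0844 to 17.2). miR-485 had 1 read of each arm. Intervals here and in what follows cover counting error only, since amplified reads without molecular identifiers do not each stand for 1 molecule.

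The number of members seen depended on the library. A read was present in 6 members in all 4 day 0 libraries (miR-127-3p, miR-434-3p, miR-541-5p, miR-667-3p and both arms of miR-1247), in 3 members in 3 libraries, in 4 in 2 libraries and in 17 in 1 library. Of these 17, 11 were seen in KO day 0 replicate 3 alone. They included miR-134-5p, which is known from neuronal dendrites, miR-410-3p, for which the block is partly named, and both arms of miR-485. These 11 are 64.7%, where the same library held 38.2% of the 191 miRNAs of the whole table seen in a single day 0 library. It was not the deepest of the 4: it had 458414 reads, and KO day 0 replicate 2, with 684413, held 2 of the 17.

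The question put to the KO was whether p73 loss alters these miRNAs, and at day 0 no member separated the genotypes in the test. miR-127-3p stood at 127.02 and 49.7 in the WT libraries and at 54.4 and 197 in the KO libraries (replicate 2 first, as throughout), from 75, 41, 92 and 252 reads. KO replicate 3 was highest and WT replicate 2 second, the other library of each genotype was lower, and the groups overlapped. For miR-541-5p the values were 30.5 and 13.4 in WT and 13 and 76.7 in KO, again with KO replicate 3 highest, WT replicate 2 second and the groups overlapping. In bulk cultures, fewer cells of a type and less RNA per cell cannot be told apart, here or at later days.

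miR-411-5p and miR-434-3p also overlapped between genotypes. miR-411-5p was at 15.2 and 0 in WT and at 7.68 and 12.5 in KO, and its 0 in WT replicate 3 allows up to 3 reads, or 3.64. miR-434-3p was at 5.08 and 3.64 in WT and at 2.95 and 14.1 in KO. It was thus highest in KO replicate 3, as were miR-127-3p and miR-541-5p, while miR-411-5p was highest in WT replicate 2.

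miR-1247-5p, on the other strand, was at 42.3 and 48.5 in WT and at 26.6 and 42.3 in KO, so WT replicate 3 and not KO replicate 3 was its highest library. Both KO values lay below both WT values, the lower WT value and the higher KO value being 42.34 and 42.26. That gap is far inside the counting interval of 31.7 to 55.1 of the KO value. Together with miR-433-3p, seen as 1 read in each WT library, it made 2 of 30 members with KO below WT without overlap, and none had KO above WT. Over all 1229 small RNAs compared at day 0, 10.8% were below and 13.4% above without overlap.

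**Figure D1:**
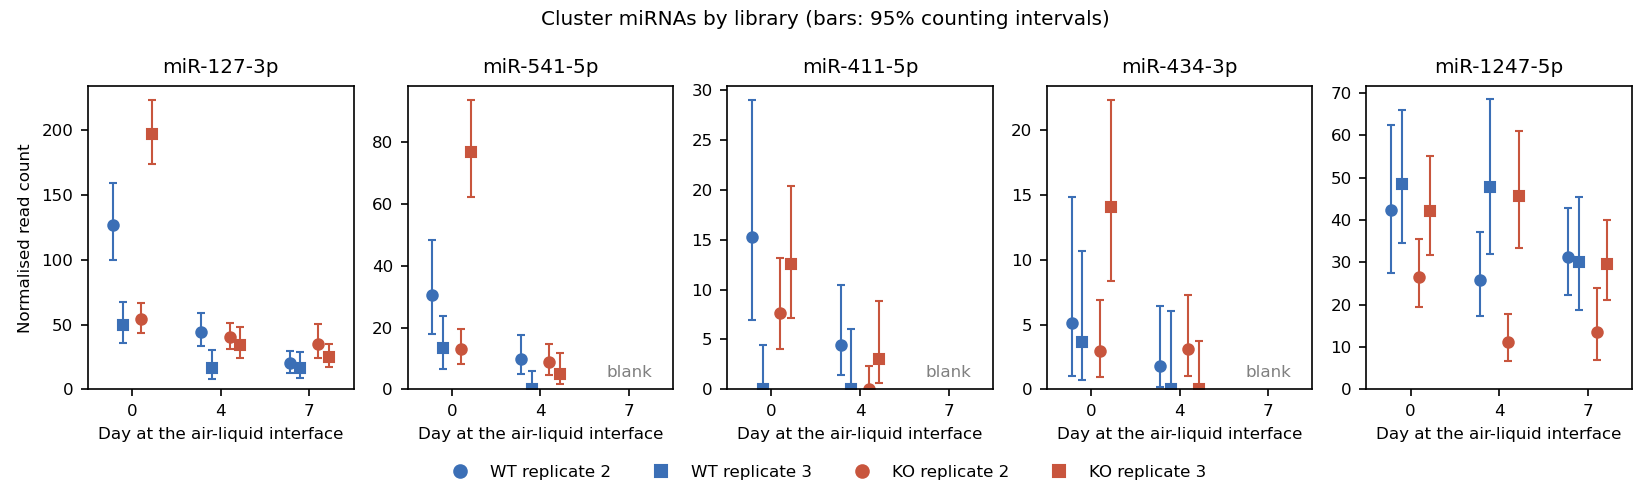
Normalised read count (linear axis) of the 5 leading members in each library at days 0, 4 and 7, WT in blue and KO in red, circles for replicate 2 and squares for replicate 3, with bars for the exact 95% Poisson interval of the reads. At day 0 the KO replicate 3 square lies highest for miR-127-3p and miR-541-5p and the KO replicate 2 circle lies near WT replicate 3, and "blank" marks members with no value at day 7.

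In limma's moderated test, 4 members were abundant enough to be tested at day 0 and 0 were called, as were 0 of all 342 small RNAs tested (0%). Unadjusted p was under 0.05 for 27 of the 342 and for none of the 4, and edgeR and DESeq2 on the recovered reads also called 0, with 22 and 9 small RNAs under an unadjusted 0.05. The KO minus WT difference on the log2(value + 1) scale was 0.38 for miR-127-3p (95% interval -0.96 to 1.72, limma adjusted p = 0.877) and 0.63 for miR-541-5p (-1.75 to 3.02, adjusted p = 0.885). It was 1.43 for miR-411-5p (-1.74 to 4.59, adjusted p = 0.758) and -0.42 for miR-1247-5p (-1.69 to 0.84, adjusted p = 0.840). The intervals are wide, and a rise of 2-fold for miR-127-3p or a fall of 2-fold for miR-1247-5p lies within them. The sign of the first 3 differences depended on single libraries. Without KO day 0 replicate 3 the difference was -0.54 for miR-127-3p and -0.60 for miR-541-5p, and without WT day 0 replicate 3 the difference was -0.29 for miR-127-3p and -0.58 for miR-411-5p.

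With no filter on low values, 20 of the 30 members were higher and 10 lower in KO at day 0, with a median log2 difference of 0.40. Over all 1229 small RNAs 735 were higher and 494 lower, with a median of 0.21. Both KO libraries were deeper at day 0, with 684413 and 458414 reads against 197497 and 255560 in WT. They also held a read for more miRNAs, 495 and 483 against 380 and 411. Depth thus ran with genotype, and its part in these unfiltered counts was not tested. The members' sum per library was 234 and 133 in WT (mean 184 ± 70.9, SD, n = 2) and 109 and 373 in KO (241 ± 186, n = 2). As a share of the library it was 699 and 430 reads per 1000000 in WT and 270 and 1038 in KO. The KO libraries were thus the lowest and the highest of the 4, with WT between them, and the exact 95% Poisson intervals of 233 to 312 and 947 to 1136 for the 2 KO libraries lie far apart.

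The summed markers of other cell types had another order at day 0. The 4 listed of 6 fibroblast and smooth muscle markers summed to 13.6 and 30.3 in the WT and to 29.0 and 29.7 in the KO libraries at day 0, nearly the same in the 2 KO libraries, whose cluster sums were the lowest and the highest. Most of it was miR-143-3p, at 11.9 to 27.2. The less abundant miR-214-3p of the same list had the order of the cluster sum, at 1.69 and 1.21 in WT and 1.18 and 6.26 in KO. Its WT values are those of 1 read in each library, so its order among the lower libraries carries no weight. The other low markers of the list, miR-145a-5p and miR-199a-3p, had no more than 1 read in any day 0 library. Their order therefore carries no weight either. miR-145a-5p was at 0 and 1.21 in WT and 0.59 and 0 in KO, and miR-199a-3p at 0 and 1.21 in WT and 0 and 0.78 in KO. The 2 endothelial markers summed to 0 to 2.95 and the 2 listed of 5 blood markers to 2.43 to 3.91 at day 0. The 7 epithelial markers summed to 28919 and 17540 in WT and to 34940 and 23414 in KO. The part of cell composition in the difference between the KO libraries was not tested.

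The 2 leading plus-strand members kept similar proportions at day 0, while the share of miR-1247 varied. miR-541-5p was 19.4% and 21.2% of the combined reads of miR-541-5p and miR-127-3p in the WT and 19.3% and 28.0% in the KO libraries at day 0, with overlapping exact 95% binomial intervals (11.9 to 28.9, 11.1 to 34.7, 12.5 to 27.7 and 23.4 to 33.0). Only miR-541-5p of these lies in an annotated gene of its own strand. Both arms of miR-1247 made up 18.8% and 40% of the cluster reads in WT and 26.5% and 12.4% in KO, and the interval of KO replicate 3 (9.57 to 15.7) lay below those of WT replicate 3 (30.8 to 49.8) and KO replicate 2 (20.3 to 33.5).

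**Figure D2:**
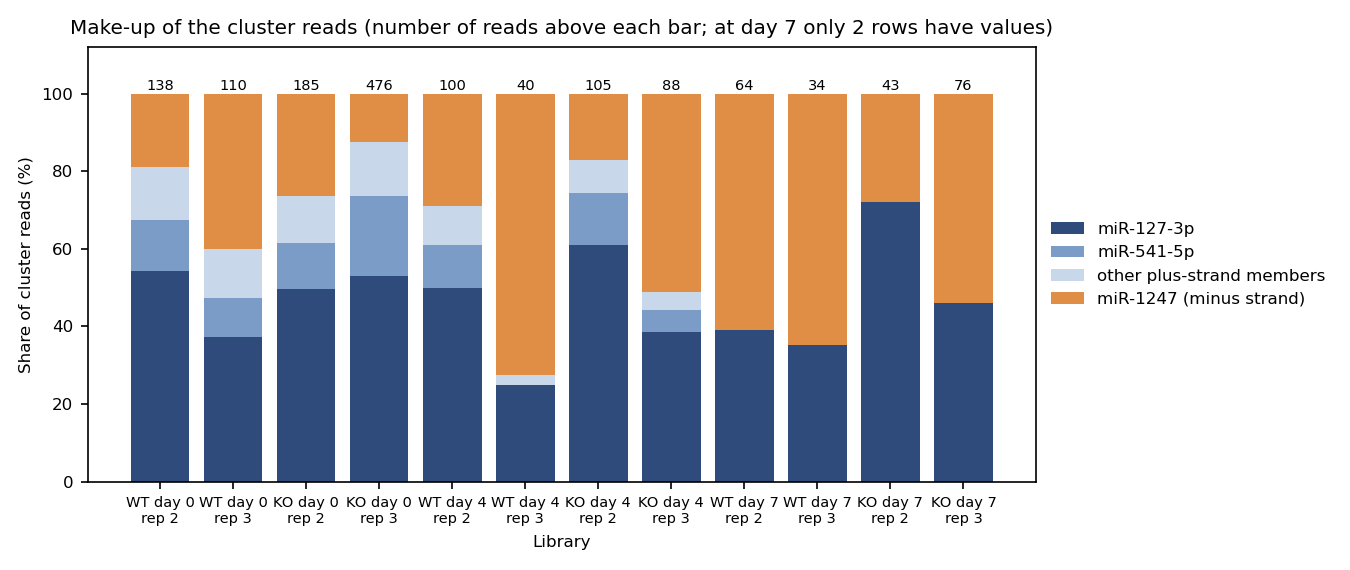
Share of the cluster reads (%, stacked bars from 0 to 100) held by miR-127-3p, miR-541-5p, the other plus-strand members and miR-1247 in each library of days 0, 4 and 7, with the number of reads above each bar. The miR-1247 share runs from 12.4% in KO day 0 replicate 3 to 72.5% in WT day 4 replicate 3, and at day 7 the bars hold miR-127-3p and miR-1247-5p alone.

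At day 4, none of the 7 members with values separated the genotypes without overlap, where 15% of all 800 small RNAs lay above and 10.6% below in KO. miR-127-3p was at 44.6 and 16.5 in WT and at 40.1 and 34.5 in KO, and both KO values lay between the WT ones. miR-1247-5p was at 25.9 and 47.8 in WT and at 11.3 and 45.7 in KO, with overlap and with replicate 2 the lower in both genotypes. miR-541-5p was at 9.82 and 0 in WT and 8.77 and 5.08 in KO, no more than 14 reads in any library. miR-411-5p was at 4.46 and 0 in WT and at 0 and 3.05 in KO, and miR-434-3p, miR-409-3p and miR-673-5p had means over the 4 libraries of 1.23, 0.917 and 1.05.

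miR-127-3p and miR-1247-5p were the 2 members tested at day 4, and 0 were called, against 1 of 340 small RNAs (0.294%), and neither had an unadjusted p under 0.05 in limma, edgeR or DESeq2. The KO minus WT log2 difference was 0.44 for miR-127-3p (95% interval -0.91 to 1.78) and -0.60 for miR-1247-5p (-1.87 to 0.67), both with a limma adjusted p of 0.997. Its sign turned for miR-127-3p without WT day 4 replicate 3 (-0.26) and for miR-1247-5p without KO day 4 replicate 2 (0.37). The sum of the 7 members was 77.6 ± 16.5 in WT and 77.6 ± 16.7 in KO (SD, n = 2 each).

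At day 7 the same 2 members had values, and here their libraries did not overlap between genotypes. miR-127-3p was at 20.1 and 16.4 in WT and at 35.3 and 25.2 in KO, both KO libraries above both WT libraries. miR-1247-5p was at 31.3 and 30 in WT and at 13.7 and 29.6 in KO, both KO libraries below, though 29.57 and 30 are nearly equal. Of all 321 small RNAs at day 7, 22.1% were above and 21.8% below without overlap, so such an order was common.

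limma called neither of them at day 7, against 2 of 321 (0.623%), with no unadjusted p under 0.05 for either in limma, edgeR or DESeq2. The log2 difference was 0.69 for miR-127-3p (95% interval -0.65 to 2.03) and -0.58 for miR-1247-5p (-1.84 to 0.68), both with a limma adjusted p of 0.868. The size for miR-1247-5p rested on 1 library, being -0.05 without KO replicate 2 of that day and -1.11 if replicate 3 was left out instead, and for miR-127-3p it was 0.46 without KO replicate 2. Averaged over days 0 and 4 it was 0.41 for miR-127-3p (-0.55 to 1.36, adjusted p = 0.804) and -0.51 for miR-1247-5p (-1.41 to 0.39, adjusted p = 0.657), again with 0 of 2 called and 0 of 312 in all (0%, 32 of 312 under an unadjusted 0.05, and 0 called by edgeR and by DESeq2). No member could be tested at day 14, where 12 of 304 small RNAs were called (3.95%). In the authors' deposited table of KO over WT, no member had an adjusted p below 0.05, the lowest being 0.995 over 5 members at day 0, 0.998 over 3 at day 4 and 0.995 over 2 at day 7.

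Over time, the plus-strand miRNA miR-127-3p fell in both genotypes by day 7. Since the scale of the deposited values differs between days, the days were first aligned with 1 log2 shift per day, of 0.15, 0.18, -0.38 and -0.01 at days 0, 4, 7 and 14, from the 225 small RNAs with values of at least 10 in every library. On this aligned scale miR-127-3p was at 141 and 55.3 in the WT libraries at day 0, at 50.6 and 18.7 at day 4 and at 15.5 and 12.6 at day 7. In the KO libraries it was at 60.4 and 219 at day 0, at 45.4 and 39.1 at day 4 and at 27.2 and 19.5 at day 7. Every day 4 and day 7 library lay below every day 0 library of its genotype, and every day 7 library below every day 4 library of its genotype. Such an order was not rare: of all small RNAs with values at both days, 15.8% in WT and 18.003% in KO lay below day 0 without overlap at day 4, and 23.7% and 28.3% did at day 7. For day 7 below day 4 without overlap the share was 10.3% in WT and 10.9% in KO. That order of miR-127-3p rested on the shift and was not tested. In the deposited values day 4 and day 7 overlapped, at 44.6 and 16.5 against 20.1 and 16.4 in WT. In KO they were at 40.1 and 34.5 against 35.3 and 25.2. The lower WT value at day 4 came from 10 reads.

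At day 4 the fall of miR-127-3p had not passed the threshold. Its log2 difference from day 0 was -1.49 ± 0.62 (SE) in WT (limma adjusted p = 0.299) and -1.43 ± 0.62 in KO (limma adjusted p = 0.256), and 0 of 2 members tested were called in each, against 2.24% of 312 small RNAs in WT and 3.53% in KO. Unadjusted limma p was under 0.05 for miR-127-3p in both genotypes, and edgeR and DESeq2 called neither member. At day 7 the difference was -2.58 ± 0.62 in WT (limma adjusted p = 0.0227), so miR-127-3p was 1 of 2 members tested that was called, where 8.42% of all small RNAs tested were called and 3.03% were called lower. In KO it was -2.27 ± 0.62 (adjusted p = 0.0428), where 8.75% were called and 4.71% were called lower. With the replicate number as a block, which pairs the KO libraries across days, its adjusted p was 0.0133 and 46 small RNAs (15.5%) were called in place of 26. edgeR on the recovered reads gave -2.62 (adjusted p = 0.0455) in WT and -2.58 (adjusted p = 0.0275) in KO, and DESeq2 called it in both.

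With 2 libraries per group these calls depend on single libraries, while the difference was negative under every alternative run. In WT the call was lost without day 0 replicate 2 (-1.91, limma adjusted p = 0.116), without day 7 replicate 2 (adjusted p = 0.118) and without day 7 replicate 3 (adjusted p = 0.140). In KO it was lost without day 0 replicate 3 (-1.35, adjusted p = 0.353), the library with the highest cluster level, and without either day 7 library (adjusted p = 0.0803 and 0.268). The KO call was also lost with values scaled to library totals without miR-92b-3p (-2.08, adjusted p = 0.0554) and with the fit held to the libraries of the comparison (adjusted p = 0.0967).

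For miR-1247-5p no change with time was called on the aligned scale, and whether it differed from miR-127-3p in this was not tested. It was at 47.1 and 53.9 in WT and 29.6 and 47.0 in KO at day 0, and at 24.2 and 23.1 in WT and 10.5 and 22.8 in KO at day 7. The day 7 libraries lay below the day 0 libraries in both genotypes without overlap, as did the 23.7% and 28.3% of all small RNAs given above, while at day 4 they overlapped day 0 (29.3 and 54.1 in WT, 12.8 and 51.8 in KO). The log2 difference of day 7 from day 0 was -1.06 ± 0.59 in WT (limma adjusted p = 0.265) and -1.21 ± 0.59 in KO (adjusted p = 0.214). Unadjusted p for miR-1247-5p was under 0.05 with DESeq2 in WT and with edgeR and DESeq2 in KO, but not with limma. With edgeR the adjusted p was 0.205 in WT and 0.145 in KO, and with DESeq2 it was 0.132 in KO. DESeq2 gave no adjusted p for it in WT. When values were scaled to library totals the WT difference was -1.93 and was called (adjusted p = 0.0249), on a scale where the median of all small RNAs tested moved from 0.02 to -0.86.

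**Figure D3:**
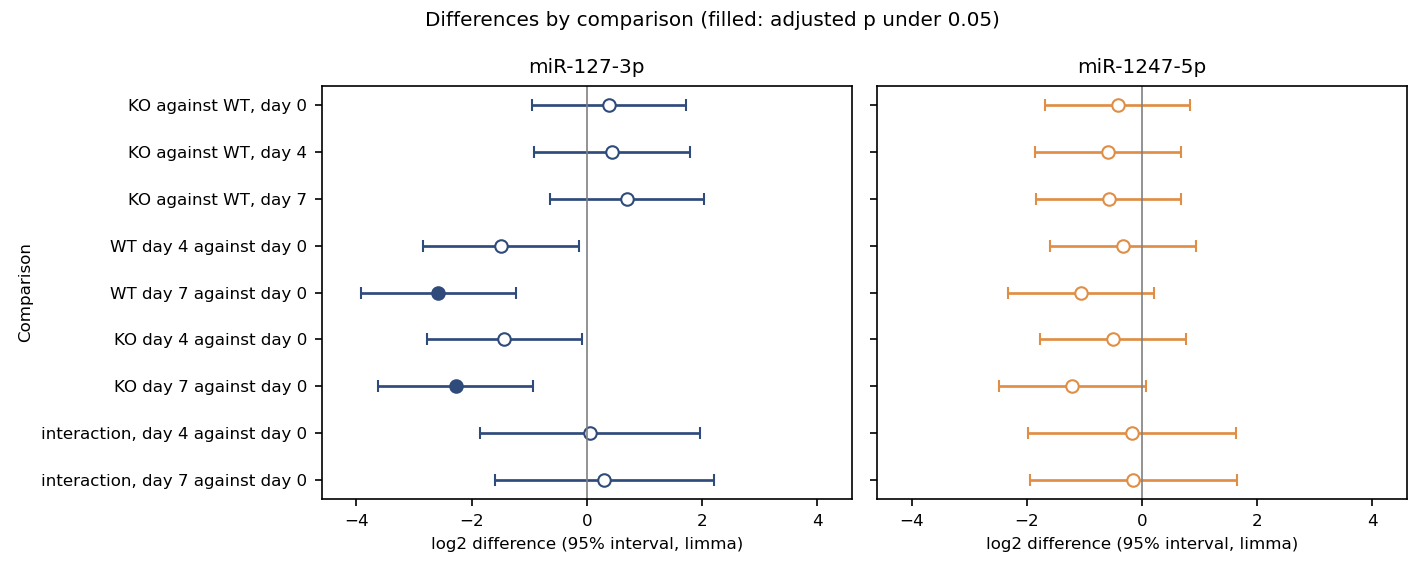
log2 differences of miR-127-3p and miR-1247-5p in each comparison on a linear axis, with points for the limma estimate and bars for its 95% interval, filled where the adjusted p was under 0.05. The day 7 against day 0 differences of miR-127-3p (-2.58 in WT and -2.27 in KO) are the filled points, and all KO against WT intervals include 0.

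The 5 less abundant members with values at day 4 had mostly negative differences from day 0. With no filter, 4 of these 5 were lower at day 4 in WT, with a median log2 difference of -1.03, and 5 of 5 in KO, with a median of -1.99. With miR-127-3p and miR-1247-5p included, 6 of 7 members were lower at day 4 in WT, with a median of -1.03, and 7 of 7 in KO, with a median of -1.43. Over all 765 small RNAs compared, 46.7% were lower in WT (median 0.05) and 46.5% in KO (median 0.03). miR-409-3p in WT was the exception, at 0.04, on 1 read at day 0. On the aligned scale, 4 of the 7 members in WT and 3 of 7 in KO lay below day 0 without overlap at day 4, and 0 lay above. The shares over all small RNAs were 15.8% below and 17.2% above in WT, and 18.003% and 19.2% in KO. This was not tested for the members as a set. Several of the 5 had libraries with 0 reads, and the fitted size of their differences depends on the pseudocount of 1.

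miR-541-5p was the most abundant of the 5. On the aligned scale it was at 33.9 and 14.8 in WT at day 0 and at 11.1 and 0 at day 4, and in KO at 14.4 and 85.2 at day 0 and at 9.93 and 5.75 at day 4. The days did not overlap within either genotype, an order shared by 15.8% of all small RNAs in WT and 18.003% in KO. It did not reach a value of 10 in 2 libraries at day 4 and was left out of the main test. With no filter its log2 difference was -2.76 ± 0.99 in WT (limma adjusted p = 0.302) and -2.09 ± 0.99 in KO (limma adjusted p = 0.526). edgeR with no filter, an alternative chosen after the data were seen, called it in KO (-2.51, adjusted p = 0.0164) and not in WT (-1.71, adjusted p = 0.544), and the difference between the genotypes in this change had an edgeR adjusted p of 0.9998.

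Whether the change with time differed between genotypes was tested as an interaction, and no member was called. For miR-127-3p the KO change minus the WT change was 0.06 at day 4 (95% interval -1.85 to 1.97) and 0.30 at day 7 (-1.60 to 2.21), and for miR-1247-5p it was -0.18 (-1.98 to 1.62) and -0.15 (-1.95 to 1.65). limma called 0 of 2 members at either day, with none under an unadjusted 0.05, and 0% of all small RNAs tested at both days, with 4 and 15 under an unadjusted 0.05. edgeR and DESeq2 also called 0 at both days. The intervals reach close to 2 on the log2 scale on either side, so they do not show that the time courses are alike.

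As a share of all reads, the 7 members listed at day 4 and the 2 listed at day 7 took up less of the library than the 30 at day 0. The cluster held 212 and 132 reads per 1000000 in WT and 156 and 221 in KO at day 4, and 64.3 and 50.2 in WT and 60.8 and 73.4 in KO at day 7. These sums are over different members on each day. They are also shares of a total in which miR-92b-3p, the most abundant miRNA at the later days, held between 1.11% and 2.30% at day 0 and between 37.1% and 43.8% at day 7. Over the 7 members with values at both days, on the aligned scale, the sum was 250 and 132 in WT and 117 and 391 in KO at day 0, and 101.1 and 74.6 in WT and 74.5 and 101.3 in KO at day 4. Each genotype's day 4 libraries lay below its day 0 libraries, and the KO libraries, 117 and 391 at day 0, were closer to each other at day 4.

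The share of miR-1247 in the cluster reads ranged higher at the later days. It was 29.0% and 72.5% in WT and 17.1% and 51.1% in KO at day 4, and 60.9% and 64.7% in WT and 27.9% and 53.9% in KO at day 7, where only miR-127-3p and miR-1247-5p are counted. Within each of these days the largest share was in WT replicate 3 and the smallest in KO replicate 2. The ratio of miR-127-3p to miR-1247-5p reads was 3.00 and 1.02 in WT and 2.04 and 4.67 in KO at day 0. It was 1.72 and 0.345 in WT and 3.56 and 0.756 in KO at day 4, where the genotypes overlapped, and 0.641 and 0.545 in WT and 2.58 and 0.854 in KO at day 7. Its day 7 values lay below its day 0 values in WT and overlapped them in KO. At day 7 both KO ratios lay above both WT ratios, which follows from the day 7 orders of the 2 members given above and adds nothing to them. The ratio was not tested.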

How the data were processed

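Small RNA was measured in 16 libraries, mapped to groups by their labels. The deposited values come under a heading of read counts but are a normalised signal. That the authors scaled them within each day is read from the values and stated in no header or label. mm10 and DESeq2 appear in the submitters' processing notes, and the labels' protocols name the RNeasy kit and a TruSeq RNA v2 kit. The aligner, the annotation and the way reads were counted are steps not given in the sources used here. Log2 fold changes of KO over WT for each day stand in the authors' second table. Per the file headers it also holds an adjusted p-value, which for miR-1247-5p at day 14 is 0.989 with no fold change beside it. Read numbers per entry were taken as the value divided by that of 1 read in the library (100% of values came out whole, within 0.0055 of a multiple). 5 predicted entries repeating a named miRNA were left out.

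The test was limma 3.58.1 in R 4.3.3 on log2(value + 1) with the variance trend, all 16 libraries in 1 fit of 8 groups, over small RNAs that reached 10 in 2 or more of a day's 4 libraries, on each day compared, Benjamini-Hochberg adjusted with a threshold of 0.05. Blank values stayed missing, and the degrees of freedom were about 12.5 to 12.8 for most members. Sums and shares were not tested. The fit was also run on data simulated for KO against WT at day 0 only, which does not cover the comparisons between days. Alternatives were edgeR 4.0.16 and DESeq2 1.42.0 on recovered reads, library totals with and without miR-92b-3p, pseudocounts of 0.5 and 5, no filter, the libraries of the comparison alone, a replicate block and each library left out. Values are given for members with a mean of at least 10 at any day, for those called under any test, and for miR-411-5p and miR-434-3p, added after their values were seen; the others are given mainly by counts, with a few values of miR-409-3p, miR-433-3p and miR-673-5p. The members and lists were chosen with earlier results of these data known.

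Differences between replicates correlated at 0.13 to 0.46 over the 6 pairs of KO days, at 0.08 to 0.31 over the 6 pairs of WT days and at -0.19 to 0.28 over the 16 pairs across genotypes. The main fit paired no libraries. The replicate block, run as an alternative, paired libraries across days within each genotype, and across genotypes for KO against WT. No 2 replicates agreed within counting noise (chi-square per degree of freedom of at least 24.7).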

Additional observations from a re-analysis of the deposited data

How the results depend on the processing

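With 2 libraries a group and 10 to 252 reads behind each miR-127-3p value, only large changes of the most abundant members are resolved. Of the alternative log2 values, 293 kept their direction and their side of the threshold, 8 lost the call, 1 gained it and 30 changed sign, none of these 30 past the threshold before or after. Of the counts of members called, 142 were as reported and 10 were not. The cause of these differences was not tested.

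For day 7 against day 0 in WT, library totals called 2 members in place of 1, and leaving out 1 library called 0 to 1. For the same comparison in KO, 0 were called with library totals without miR-92b-3p (-2.08, limma adjusted p = 0.0554) and with the libraries of the comparison alone (adjusted p = 0.0967), and 0 to 1 without 1 library. Over all alternatives the difference of miR-127-3p was -3.44 to -1.91 in WT and -3.20 to -1.35 in KO. edgeR on reads with no filter, chosen after seeing the data, called 1 member for day 4 against day 0 in KO.

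Leaving out 1 library turned the sign of the KO minus WT difference at day 0 for miR-127-3p (-0.54 to 1.298), miR-411-5p (-0.58 to 3.44) and miR-541-5p (-0.60 to 1.87), at day 4 for miR-127-3p (-0.26 to 1.13) and miR-1247-5p (-1.56 to 0.37) and averaged over both days for miR-127-3p (-0.053 to 0.87). It did so for miR-1247-5p at day 4 against day 0 in WT (-0.76 to 0.10) and KO (-1.47 to 0.46). For the interaction it gave -0.86 to 0.98 (miR-127-3p) and -1.14 to 0.79 (miR-1247-5p) at day 4, and -0.62 to 1.22 and -0.67 to 0.37 at day 7. The interaction at day 4 also turned with edgeR (-0.33 for miR-127-3p and 0.048 for miR-1247-5p), edgeR with no filter (-0.34 and 0.022) and DESeq2 (-0.24 and 0.055), and for miR-1247-5p with library totals (0.21) and totals without miR-92b-3p (0.10). At day 7 it was 0.24 and 0.21 for miR-1247-5p on these 2 scales.

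Scaled to library totals, the cluster sum was 326 in WT and 377 in KO at day 0, 99.0 and 109 in WT and KO at day 4, and 33.0 and 38.7 at day 7, where totals without miR-92b-3p gave 36.2 and 41.8. Without its most abundant member the sum was 95.2 in WT and 115 in KO at day 0, 47.0 and 40.3 in WT and KO at day 4 and 30.7 and 21.6 at day 7. Without both miR-1247 arms, a choice made after seeing the data, it was 40.8 and 49.1 at day 4 and 18.2 and 30.3 at day 7.

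The replicate block changed no call of a member: the adjusted p of miR-127-3p for day 7 against day 0 was 0.00635 in WT (difference -2.58) and 0.0133 in KO (-2.27). In WT it raised the small RNAs called from 7 to 14 at day 4 and from 25 to 39 at day 7. A sum over members with values at every day could not be made, since none had values at day 14.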

Other observations

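Other imprinted miRNAs outside chromosome 12 had 12 entries in the table. The most abundant was miR-298-5p, from the imprinted Gnas-Nespas region, at 32.2 and 41.3 in WT and 21.3 and 83.7 in KO at day 0. KO replicate 3 was the highest and KO replicate 2 the lowest, as for the Dlk1-Dio3 cluster sum, while the WT libraries stood in the opposite order. How common this is among all small RNAs was not counted. miR-298-5p had values at all 4 days, and its KO minus WT log2 difference was 0.21, -0.55, 0.76 and 0.15 at these days in turn. None was called by limma (adjusted p of 0.928, 0.997, 0.868 and 0.939), and every 95% interval included 0, the day 7 one running from -0.72 to 2.25. miR-467d-5p, from the large miRNA cluster in an intron of Sfmbt2, was at 8.47 and 16.99 in WT and 2.95 and 16.4 in KO at day 0, and it was not called either (limma adjusted p = 0.815). The other 10 entries had day 0 values of 0 to 6.26.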
